A study of Mus musculus with 48 samples.

Results

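Complement and coagulation factors were followed as a set of 41 gene symbols chosen by name, most of them secreted liver factors and a few cell-surface regulators. Of these, 40 had a row in the count table of 23930 genes, and Cfb was not analysed here. By textbook source, 31 of the 40 are secreted mainly by hepatocytes, 6 are secreted mainly by other cells (Cfd, Cfp, Vwf, Plat, Plau and Tfpi), and 3 are membrane proteins (F3, Plaur and Thbd). A filter on low counts left 39 for testing, without Cfd. The filter was passed on the PBS libraries alone by 37 of the 39, while Plat and Plaur passed only through treated libraries, so being tested already required them to be high in a treated group.

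The samples were livers of mice given LX-A1656, LX-A2003 or LX-A3928, each a chemically modified gapmer antisense oligonucleotide directed at Scarb1, or PBS as the vehicle. Livers were taken 24 h, 72 h and 168 h after the first administration, with 4 replicates in each of the 12 groups (48 libraries). Whether replicates are separate animals is not stated in the labels, and p-values therefore reflect the variation among these samples, possibly technical. Dose, oligonucleotide sequence, strain, sex and age were not found in the sources used, so differences between oligonucleotides are differences at unknown doses. All 9 treated groups carry an oligonucleotide against the same gene, and no group with an oligonucleotide against another target was analysed here.

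Once bound to its RNA target, a gapmer recruits RNase H, which cleaves the RNA. Complement is a cascade of plasma proteins that marks and lyses targets. The classical and lectin pathways start it from bound antibody or sugars, the alternative pathway amplifies it through C3, and the terminal components assemble a pore. Coagulation is a chain of liver-made zymogens that begins when tissue factor (F3) on cell surfaces meets factor VII, and ends when thrombin turns fibrinogen into fibrin. Plasminogen activators, made outside the hepatocyte, turn plasminogen into plasmin, which dissolves fibrin.

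Levels are counts relative to the TMM-adjusted library total (CPM), and each gene was read through a designed PCR fragment, so levels are compared between groups and not between genes. Fold changes are log2 values ± standard error from edgeR's quasi-likelihood test on all 48 libraries, and a gene is called at a Benjamini-Hochberg adjusted p under 0.05 over the 12672 genes tested. Library totals ranged from 8140065 to 17191129 counts. The targeted gene Scarb1 lay between 3.36 and 56.8 CPM in the 36 treated libraries, against 236 to 410 CPM in the 12 PBS libraries. Replicate 3 of the LX-A3928 group at 168 h stood apart from its group, with a chi-square per degree of freedom of 133.5, 219.8 and 217.1 against the other libraries of that group. It was the highest of the 4 libraries for 16 of the 31 hepatocyte-secreted genes and the lowest for 10. The other 3 libraries of that group differed by up to 84.7 among themselves. At 72 h, replicate 1 of LX-A1656 stood at 52.7 to 73.4 against the others of its group, which differed by 12.5 to 22.3 among themselves. Replicate 1 of LX-A2003 at 72 h stood at 21.2 to 25.8, against 6.80 to 9.25 among the others, and replicate 4 of LX-A3928 at 72 h at 48.0 to 55.7, against 11.8 to 21.0. At 168 h, replicate 4 of LX-A2003 stood at 36.7 to 85.5, against 13.1 to 22.0 among the others. Replicate 4 of LX-A1656 at 168 h stood at 45.4 to 50.7, against 10.6 to 27.4. Calls against PBS that were lost or gained without LX-A3928 replicate 3 at 168 h or LX-A1656 replicate 1 at 72 h are named with the results. For LX-A2003 and LX-A1656 at 168 h they are not named, and leaving out 1 library at a time gave 33 to 35 and 35 to 36 called genes of the set.

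Most of the liver-made factors were lower than with PBS at 168 h under each of the 3 oligonucleotides, and under LX-A1656 most were already lower at 72 h. At 168 h, 29 of the 39 genes were lower and 7 higher with LX-A1656 than with PBS, where 63.9% of all genes were called (34.1% higher and 29.7% lower). With LX-A2003, 29 were lower and 6 higher, where 55.1% of all genes were called (29.8% higher and 25.3% lower), and with LX-A3928, 24 were lower and 6 higher, where 48% of all genes were called (27.3% higher and 20.7% lower). Without replicate 3, LX-A3928 had 28 lower and 7 higher, with C9, Cfi, F9, F13b and Vwf added. The share of the 39 genes called lower was above the share of all genes called lower with each oligonucleotide, and the share called higher was below it. Among the 31 hepatocyte-secreted genes, 28, 28 and 23 were lower in the same order of oligonucleotides, with median log2 fold changes of -1.70, -1.26 and -0.97, while the median over all tested genes was 0.10, 0.04 and 0.08. Scaled by library totals alone, which moved the all-gene medians to 0.564, 0.451 and 0.386, the set had 27 lower and 8 higher, 24 lower and 7 higher, and 22 lower and 7 higher. That ended the calls of Fga and Fgg for LX-A1656, of C4b, Masp1, C6, F9 and F12 for LX-A2003, and of Masp1 and Fgb for LX-A3928. It added Fgb, higher, for LX-A1656, Pros1, higher, for LX-A2003 and Vwf, higher, for LX-A3928. Several genes made by other cells were higher, among them Plat and Plaur, which were tested only because they were high in treated libraries. Of the 5 such secreted genes tested, 4, 4 and 3 were higher and none was lower, and of the 3 membrane genes, Plaur and Thbd were higher and F3 was lower with each oligonucleotide.

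**Figure D1:**
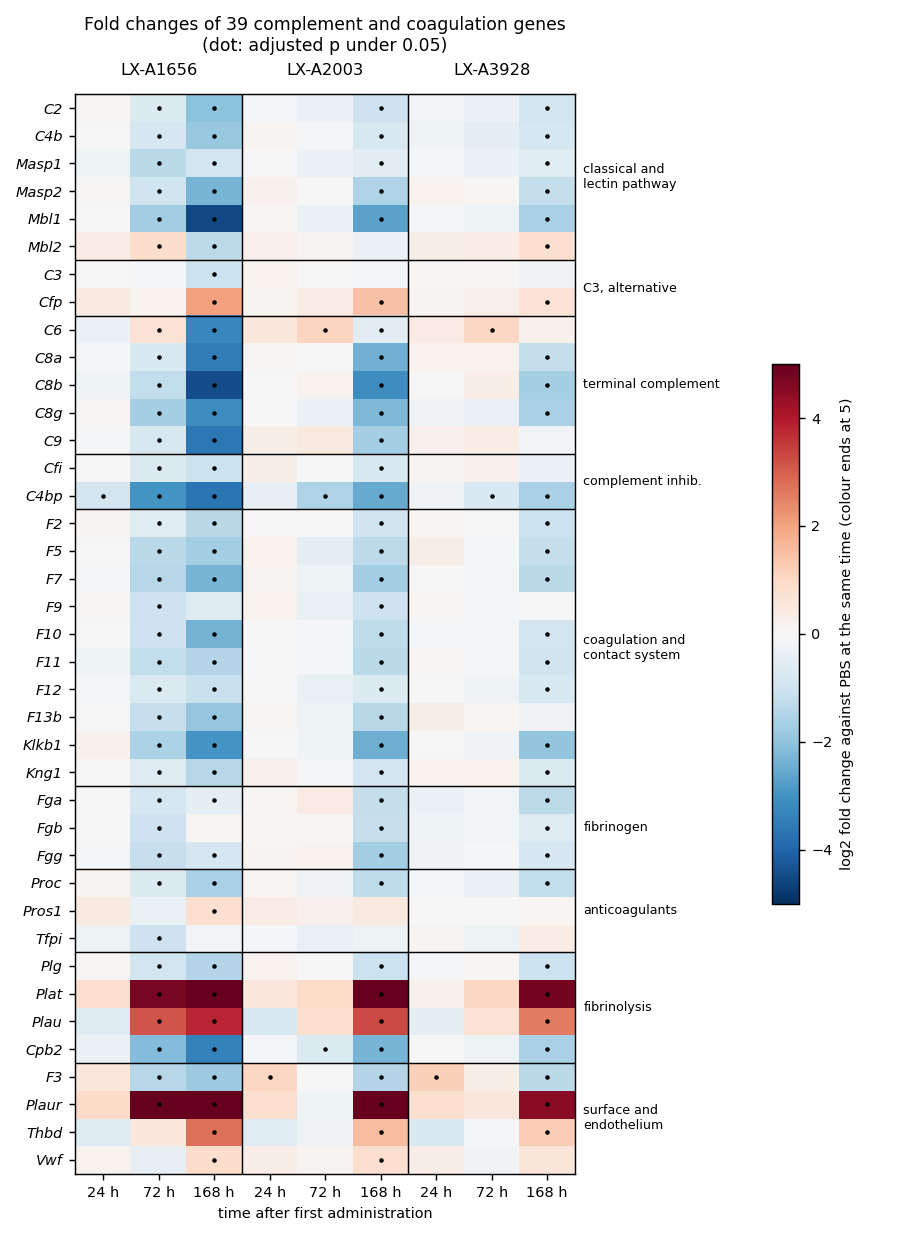
Log2 fold change of the 39 tested genes (rows, grouped by role) against PBS at the same time, for each oligonucleotide at 24 h, 72 h and 168 h (columns). Blue is lower and red higher than PBS, the colour scale ends at 5 in each direction, and a dot marks an adjusted p under 0.05. The LX-A1656 columns at 72 h and 168 h and the other 168 h columns are mostly blue with dots, except for Plat, Plau, Plaur, Thbd and Cfp. Red with dots are also Mbl2 and C6 with LX-A1656 at 72 h, and Pros1 and Vwf with LX-A1656 at 168 h. The same holds for Vwf with LX-A2003 and Mbl2 with LX-A3928 at 168 h.

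Earlier times held few calls outside LX-A1656 in the fit on all 48 libraries, and fits of only the groups compared called more in several comparisons. At 24 h, 1 of the 39 genes was called with each oligonucleotide. It was C4bp, lower, for LX-A1656, where 2.86% of all genes were called (0.986% higher and 1.88% lower). It was F3, higher, for LX-A2003, where 2.09% of all genes were called (0.939% higher and 1.15% lower), and for LX-A3928, where 3.26% of all genes were called (1.68% higher and 1.58% lower). At 72 h, LX-A1656 had 29 genes lower and 5 higher, where 48.2% of all genes were called (24.7% higher and 23.4% lower). LX-A2003 had 2 lower (C4bp and Cpb2) and 1 higher (C6), where 12% of all genes were called (5.48% higher and 6.55% lower). A fit of the 2 groups alone called 12 genes of the set for LX-A2003, and the share of all genes in that fit is not given here. Among genes not called on all 48 libraries, F5 was at 568 to 600 CPM with LX-A2003, against 780 to 853 CPM with PBS. F12 was at 312 to 429 CPM against 439 to 484 CPM, and Fga at 8047 to 8640 CPM against 5452 to 7066 CPM. LX-A3928 had 1 lower (C4bp) and 1 higher (C6), where 9.8% of all genes were called (4.47% higher and 5.33% lower). Without replicate 1, LX-A1656 at 72 h had 26 lower and 5 higher, and C8a, C9 and F9 were no longer called. Library totals alone ended the same 3 calls and added Thbd, higher. Without replicate 1, LX-A2003 at 72 h had 2 lower and 1 higher but lost 1 of its 3 calls, and without replicate 4, LX-A3928 at 72 h had 2 lower and 1 higher, with Proc added. In the PBS livers, none of the 39 genes was called by edgeR or DESeq2 at 72 h against 24 h or at 168 h against 24 h. At an unadjusted p under 0.05, edgeR marked 2 of them at 72 h and 5 at 168 h. The share of all genes at that unadjusted threshold is not given here. At the adjusted threshold, 0.0789% of all genes were called (0.0473% higher and 0.0316% lower) at 72 h. At 168 h, 1.03% of all genes were called (0.355% higher and 0.679% lower).

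The plasminogen activators and their receptor had the largest rises of the set at 168 h. Plat and Plaur passed the low-count filter only through treated libraries, so being high there was a condition for testing them. Their p-values are given as a description and not as support for that rise. Plat encodes tissue-type plasminogen activator, Plau the urokinase-type activator and Plaur the urokinase receptor, which is anchored in the cell membrane. Plat at 168 h had 663, 493, 462 and 701 CPM with LX-A1656, 183, 186, 97.6 and 183 CPM with LX-A2003 and 22.1, 23.6, 22.0 and 42.5 CPM with LX-A3928, against 1.01, 0.724, 2.02 and 0.254 CPM with PBS. No treated library overlapped the PBS libraries, and the 3 oligonucleotides did not overlap each other. The log2 fold changes of Plat against PBS were 9.19 ± 0.46 (adjusted p = 4.55e-21), 7.36 ± 0.44 (adjusted p = 6.05e-18) and 4.80 ± 0.43 (adjusted p = 1.93e-12) in that order of oligonucleotides. They rest on a PBS group with 32 counts of Plat in all.

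Plaur followed the same order at 168 h, with 141, 103, 83.6 and 156 CPM with LX-A1656, 63.7, 77.4, 52.1 and 60.6 CPM with LX-A2003 and 14.8, 14.6, 7.30 and 16.6 CPM with LX-A3928, against 0.377, 0.310, 1.62 and 0.127 CPM with PBS. Its log2 fold changes against PBS were 7.67 ± 0.46 (adjusted p = 1.03e-18), 6.74 ± 0.46 (adjusted p = 1.60e-16) and 4.50 ± 0.46 (adjusted p = 5.58e-11). In PBS livers Plaur had 19 counts over the 4 libraries, and its highest PBS library (1.62 CPM) was still below the lowest treated library (7.30 CPM). Plau was at 16.3, 19.9, 18.6 and 20.0 CPM with LX-A1656, 11.2, 17.7, 11.1 and 13.2 CPM with LX-A2003 and 5.68, 9.95, 5.23 and 10.7 CPM with LX-A3928, against 2.14, 1.76, 0.808 and 0.508 CPM with PBS. All treated libraries were above PBS, although LX-A1656 and LX-A2003 overlapped each other, and the log2 fold changes of Plau were 3.81 ± 0.35 (adjusted p = 4.69e-13), 3.32 ± 0.35 (adjusted p = 5.19e-11) and 2.57 ± 0.35 (adjusted p = 4.72e-08).

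At 72 h these 3 genes were higher with LX-A1656 alone among the calls. Plat had 24.2, 3.91, 11.2 and 10.7 CPM, against 0.609, 0.331, 0.842 and 0.0997 CPM with PBS (log2 fold change 4.75 ± 0.50 (adjusted p = 7.73e-11)). Plaur had 41.4, 9.82, 17.1 and 15.5 CPM, against 0.852, 0.663, 0.120 and 0.598 CPM with PBS (log2 fold change 5.20 ± 0.45 (adjusted p = 3.98e-13)). In both genes replicate 1, the library that stood apart, was the highest of the LX-A1656 group, and the other 3 libraries also lay above every PBS library. Direct comparison at 72 h gave LX-A2003 against LX-A1656 a log2 difference of -5.42 ± 0.45 (adjusted p = 3.40e-13) in Plaur, and LX-A3928 against LX-A1656 one of -4.68 ± 0.42 (adjusted p = 1.74e-12). At 168 h the oligonucleotides still differed in Plaur, by -0.93 ± 0.30 (adjusted p = 0.0144) for LX-A2003 against LX-A1656 and -2.24 ± 0.32 (adjusted p = 7.27e-06) for LX-A3928 against LX-A2003.

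**Figure D2:**
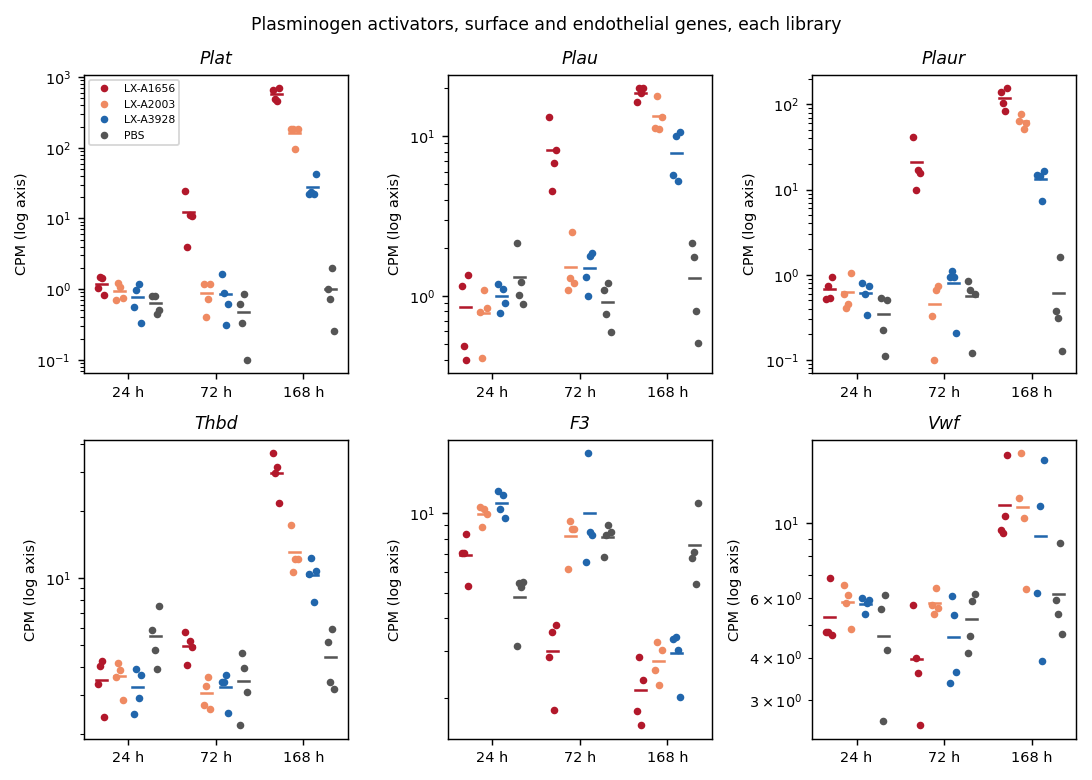
CPM (log axis) of Plat, Plau, Plaur, Thbd, F3 and Vwf in each library, by time, for LX-A1656, LX-A2003, LX-A3928 and PBS from left to right. Each point is a library and each bar a group mean of 4. Plat, Plau and Plaur lie above PBS in every treated library at 168 h, and F3 lies below PBS there.

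Thrombomodulin (Thbd), the endothelial receptor that turns thrombin into an activator of protein C, rose at 168 h. At 168 h Thbd was at 36.2, 29.5, 31.5 and 21.6 CPM with LX-A1656, 17.3, 10.7, 12.1 and 12.2 CPM with LX-A2003 and 10.5, 12.3, 7.79 and 10.8 CPM with LX-A3928, against 5.15, 3.42, 5.92 and 3.17 CPM with PBS. The groups did not overlap with PBS, and the log2 fold changes were 2.76 ± 0.23 (adjusted p = 2.29e-14), 1.57 ± 0.23 (adjusted p = 1.10e-07) and 1.24 ± 0.23 (adjusted p = 1.44e-05). At 72 h the log2 fold change with LX-A1656 was 0.52 ± 0.24 (adjusted p = 0.0666), or 0.73 ± 0.26 (adjusted p = 0.0149) with library totals alone. Between the 72 h and the 168 h effect, the log2 difference of Thbd was 2.24 ± 0.33 (adjusted p = 6.79e-07) with LX-A1656, 1.75 ± 0.34 (adjusted p = 6.40e-05) with LX-A2003 and 1.33 ± 0.34 (adjusted p = 0.00269) with LX-A3928.

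Tissue factor (F3), the membrane protein that starts coagulation, went the other way from the other membrane genes. At 168 h F3 was at 1.78, 2.87, 1.58 and 2.33 CPM with LX-A1656, 2.55, 3.25, 2.23 and 3.02 CPM with LX-A2003 and 3.33, 3.39, 3.04 and 2.01 CPM with LX-A3928, against 6.79, 7.14, 5.38 and 10.9 CPM with PBS. Every treated library was below every PBS library, with log2 fold changes of -1.82 ± 0.26 (adjusted p = 4.54e-08), -1.45 ± 0.25 (adjusted p = 4.81e-06) and -1.36 ± 0.25 (adjusted p = 1.93e-05). With LX-A1656 it was already lower at 72 h, at 2.87, 3.55, 1.80 and 3.79 CPM against 6.82, 8.28, 9.02 and 8.47 CPM with PBS (log2 fold change -1.44 ± 0.25 (adjusted p = 5.52e-06)).

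At 24 h F3 was called higher with LX-A2003, at 10.6, 8.85, 10.4 and 9.94 CPM, and with LX-A3928, at 12.1, 10.4, 11.7 and 9.60 CPM, against 3.14, 5.42, 5.24 and 5.47 CPM with PBS. Against PBS this gave log2 fold changes of 1.05 ± 0.24 (adjusted p = 0.00968) and 1.19 ± 0.24 (adjusted p = 0.00167), and that of LX-A1656 was 0.53 ± 0.25 (adjusted p = 0.361). The PBS level itself was lower at 24 h than later, with 6.82, 8.28, 9.02 and 8.47 CPM at 72 h and 6.79, 7.14, 5.38 and 10.9 CPM at 168 h, although neither PBS comparison was called. Without replicate 1 of the PBS group at 24 h, LX-A2003 had no called gene among the 39 at that time.

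Von Willebrand factor (Vwf), which endothelial cells secrete to tether platelets, changed less. At 168 h Vwf was at 9.57, 9.31, 10.5 and 15.8 CPM with LX-A1656, 11.9, 16.1, 10.3 and 6.38 CPM with LX-A2003 and 6.21, 11.2, 3.90 and 15.4 CPM with LX-A3928, against 5.91, 5.38, 8.75 and 4.70 CPM with PBS. Only the LX-A1656 libraries all lay above PBS. Log2 fold changes against PBS were 0.87 ± 0.29 (adjusted p = 0.00779), 0.85 ± 0.29 (adjusted p = 0.0115) and 0.59 ± 0.29 (adjusted p = 0.0907), and without replicate 3 that of LX-A3928 was 0.83 ± 0.28 (adjusted p = 0.0123), as against 0.94 ± 0.29 (adjusted p = 0.00669) with all libraries and library totals alone. The 3 oligonucleotides were not told apart in Vwf, and the log2 difference of LX-A3928 from LX-A1656 was -0.28 with a 95% interval of -0.84 to 0.27.

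Markers of several other cell types moved with the genes that rose. The 6 listed vascular endothelial markers, which include Vwf, summed to 274 to 465 CPM with LX-A1656, 170 to 303 CPM with LX-A2003 and 111 to 232 CPM with LX-A3928 at 168 h, against 53.4 to 88.7 CPM with PBS, and none of them was at 0. The 7 of 8 recruited monocyte or macrophage markers in the table summed to 698 to 1046 CPM, 372 to 474 CPM and 259 to 578 CPM in the same order of oligonucleotides, against 118 to 161 CPM with PBS, with none at 0. The 8 stellate cell markers summed to 438 to 718 CPM, 516 to 1090 CPM and 320 to 731 CPM, against 165 to 244 CPM with PBS, again with none at 0. The 10 sinusoidal endothelial markers moved down instead, to 266 to 305 CPM, 271 to 320 CPM and 317 to 364 CPM, against 455 to 486 CPM with PBS. Mast cell markers (6 of 6) summed to 75.4 to 188 CPM with LX-A1656, 8.02 to 19.0 CPM with LX-A2003 and 2.43 to 3.69 CPM with LX-A3928, against 0.508 to 1.63 CPM with PBS, where Cpa3, Cma1, Tpsb2 and Mcpt4 were at 0, as Mcpt4 also was with LX-A2003. Kupffer cell markers (8 of 8) were at 465 to 598 CPM with LX-A1656, 516 to 680 CPM with LX-A2003 and 414 to 626 CPM with LX-A3928, against 241 to 284 CPM with PBS, with C1qa at 0 in PBS livers. Platelet markers (6 of 6) were at 24.7 to 53.7 CPM with LX-A1656, 9.54 to 13.6 CPM with LX-A2003 and 9.47 to 21.2 CPM with LX-A3928, against 6.98 to 10.7 CPM with PBS. For neutrophils (7 of 7) the sums were 15.5 to 37.6 CPM with LX-A1656, 9.46 to 16.3 CPM with LX-A2003 and 8.79 to 43.2 CPM with LX-A3928, against 3.52 to 6.19 CPM with PBS, with Ly6g and Mpo at 0 in PBS livers, and for cholangiocytes (6 of 6) they were 220 to 301 CPM with LX-A1656, 122 to 175 CPM with LX-A2003 and 90.3 to 270 CPM with LX-A3928, against 84.9 to 114 CPM with PBS. Spp1 is counted in both the cholangiocyte and the recruited monocyte or macrophage sums. Single markers are not given here, so how far Spp1 carries either sum is not shown. The part of these cell types in the rise of Plat, Plau, Plaur, Thbd, Cfp and Vwf was not tested, and in whole liver more cells of a type and more RNA per cell cannot be told apart.

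The sequence before the start sites of Plaur and F3 is shown because both are surface genes that changed in opposite directions at 168 h. The 2 windows run from 250 bases before to 50 bases after the RefSeq start site in GRCm38.p6, written on the gene's own strand. Plaur lies at chr7:24462233-24462532 on the plus strand and F3 at chr3:121723287-121723586 on the plus strand. Capitals mark matches to any of 5 motifs searched on both strands, which may overlap, and these promoters were chosen with the levels and the matches known.
Plaur: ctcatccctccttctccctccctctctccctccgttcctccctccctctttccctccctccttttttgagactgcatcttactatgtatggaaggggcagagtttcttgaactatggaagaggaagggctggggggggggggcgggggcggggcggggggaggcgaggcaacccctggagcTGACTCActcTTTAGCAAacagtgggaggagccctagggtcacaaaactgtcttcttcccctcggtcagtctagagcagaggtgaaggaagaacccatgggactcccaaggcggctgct
F3: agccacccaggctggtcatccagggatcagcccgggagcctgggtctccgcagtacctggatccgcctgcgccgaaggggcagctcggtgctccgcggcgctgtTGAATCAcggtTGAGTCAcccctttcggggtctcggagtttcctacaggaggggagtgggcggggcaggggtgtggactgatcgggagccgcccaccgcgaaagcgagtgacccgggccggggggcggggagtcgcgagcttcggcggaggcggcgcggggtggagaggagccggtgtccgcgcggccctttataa
The AP-1 motif TGANTCA matched at 69 bases before the start in Plaur and at 146 and 135 bases before it in F3, and the C/EBP motif TTGCNNAA matched at 59 bases before it in Plaur. Of the 40 genes, 29 had a promoter in the RefSeq table, which did not include Plat or Plau. AP-1 matched 5 of the 29 (C8g, F2, Fgb, F3 and Plaur) and 7.81% of all 32851 promoters of this length. C/EBP matched 9 of the 29 and 10.8% of all, the STAT3 motif TTCNNNGAA 6 of the 29 and 8.30% of all, and the HNF1 motif 2 of the 29 (C4bp and F13b) and 0.399% of all. The HNF4 motif CAAAGTCCA matched none of the 29 and 0.475% of all. A match is a run of letters and not a measured binding site, and the part of any match in the changes of these genes was not tested.

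Properdin (Cfp), which stabilizes the alternative pathway convertase and is made mainly by leukocytes, rose with each oligonucleotide at 168 h. Cfp was at 87.4, 63.4, 64.2 and 103 CPM with LX-A1656, 56.0, 56.9, 59.1 and 42.9 CPM with LX-A2003 and 27.8, 33.8, 30.6 and 34.1 CPM with LX-A3928, against 22.2, 14.7, 23.4 and 16.8 CPM with PBS. All treated libraries were above all PBS libraries, with log2 fold changes of 2.04 ± 0.19 (adjusted p = 5.55e-13), 1.48 ± 0.19 (adjusted p = 4.97e-09) and 0.71 ± 0.19 (adjusted p = 0.00135). C3, the hub of the cascade, was lower with LX-A1656 only among the calls, at 6694, 5377, 6842 and 5248 CPM, against 12761, 13952, 11498 and 10007 CPM with LX-A2003, 12319, 12340, 6684 and 13620 CPM with LX-A3928 and 12293, 12738, 13419 and 12136 CPM with PBS. Its log2 fold change was -1.07 ± 0.16 (adjusted p = 1.17e-07) with LX-A1656, -0.07 ± 0.16 (adjusted p = 0.728) with LX-A2003 and -0.17 ± 0.16 (adjusted p = 0.386) with LX-A3928, and the direct difference of LX-A2003 from LX-A1656 was 1.00 ± 0.16 (adjusted p = 2.68e-06). In the LX-A3928 group replicate 3 had the low value of 6684 CPM, near the LX-A1656 libraries. Cfd, an adipocyte-derived protease of the alternative pathway, was too low to test, and its 267 counts with LX-A3928 at 168 h came mostly from replicate 2 (18.7 CPM, against 0, 0.487 and 1.12 CPM in the other 3).

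In the classical and lectin pathways, 6 of 6 genes were called lower with LX-A1656 at 168 h, 5 with LX-A2003 and 5 with LX-A3928. Of all genes, 29.7%, 25.3% and 20.7% were called lower in the same order. Mannose-binding lectin A (Mbl1), which recognizes microbial sugars, had the largest fall. Mbl1 was at 26.6, 21.0, 27.9 and 19.0 CPM with LX-A1656, 76.5, 65.2, 95.6 and 105 CPM with LX-A2003 and 116, 126, 339 and 120 CPM with LX-A3928, against 439, 599, 535 and 605 CPM with PBS. The groups did not overlap with PBS, and the log2 fold changes were -4.53 ± 0.26 (adjusted p = 8.99e-20), -2.67 ± 0.24 (adjusted p = 3.76e-13) and -1.64 ± 0.23 (adjusted p = 7.31e-08). With LX-A1656 at 72 h Mbl1 was at 93.9, 211, 129 and 181 CPM, against 522, 518, 551 and 484 CPM with PBS (log2 fold change -1.76 ± 0.23 (adjusted p = 1.34e-08)). Without replicate 3, the LX-A3928 fold change at 168 h was -2.17 ± 0.19 (adjusted p = 7.06e-13).

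Masp2, the lectin-pathway protease that cleaves C4 and C2, had 70.2, 87.5, 97.2 and 71.7 CPM with LX-A1656, 155, 143, 138 and 127 CPM with LX-A2003 and 193, 210, 130 and 193 CPM with LX-A3928 at 168 h, against 446, 430, 420 and 358 CPM with PBS. Its log2 fold changes were -2.34 ± 0.13 (adjusted p = 1.06e-20), -1.55 ± 0.12 (adjusted p = 9.99e-15) and -1.19 ± 0.12 (adjusted p = 3.40e-11), with no overlap between any treated library and PBS. C2, C4b and Masp1 fell at 168 h by between 0.55 (Masp1 with LX-A2003) and 2.06 (C2 with LX-A1656) on the log2 scale, and each was called with each oligonucleotide. C4b has a close copy in the mouse genome, C4a, and how reads were assigned between them is unknown here, so its values are uncertain.

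Mannose-binding lectin C (Mbl2), another sugar receptor of the lectin pathway, did not follow Mbl1 (it was singled out after its values were seen). At 72 h Mbl2 was higher with LX-A1656, at 347, 336, 278 and 376 CPM against 189, 180, 168 and 185 CPM with PBS (log2 fold change 0.89 ± 0.17 (adjusted p = 3.01e-05)). At 168 h it was at 61.3, 78.0, 84.6 and 81.8 CPM with LX-A1656, 152, 143, 147 and 179 CPM with LX-A2003 and 240, 227, 569 and 285 CPM with LX-A3928, against 210, 179, 165 and 203 CPM with PBS. It was thus below PBS in every LX-A1656 library and above PBS in every LX-A3928 library. Its log2 fold changes were -1.31 ± 0.17 (adjusted p = 1.22e-08), -0.29 ± 0.17 (adjusted p = 0.158) and 0.80 ± 0.17 (adjusted p = 1.44e-04), and without replicate 3 that of LX-A3928 was 0.41 ± 0.13 (adjusted p = 0.0110). The effect of LX-A1656 on Mbl2 differed between 168 h and 72 h by -2.20 ± 0.25 (adjusted p = 1.54e-09).

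The terminal components, which build the lytic pore, fell the most of the complement groups with LX-A1656, with a median log2 fold change of -3.49 over the 5 genes at 168 h. With LX-A2003 the median was -2.26 and all 5 were called lower, where 25.3% of all genes were called lower. With LX-A3928 it was -1.20 and 3 were called lower (C8a, C8b and C8g), where 20.7% of all genes were called lower. C8b, the beta chain of C8, was at 30.3, 34.6, 49.8 and 35.8 CPM with LX-A1656, 90.6, 73.0, 95.8 and 119 CPM with LX-A2003 and 194, 144, 540 and 143 CPM with LX-A3928, against 943, 949, 803 and 536 CPM with PBS. Replicate 3 of LX-A3928 overlapped the lowest PBS library, and the other treated libraries did not. Log2 fold changes of C8b were -4.42 ± 0.32 (adjusted p = 7.33e-16), -3.09 ± 0.30 (adjusted p = 1.08e-11) and -1.66 ± 0.29 (adjusted p = 5.68e-06), and without that library the last was -2.33 ± 0.25 (adjusted p = 2.42e-10). C8g, the gamma chain, was at 64.6, 50.7, 55.8 and 55.3 CPM, 102, 97.1, 116 and 102 CPM and 113, 119, 272 and 149 CPM in the same order, against 585, 390, 542 and 477 CPM with PBS, for log2 fold changes of -3.14 ± 0.21 (adjusted p = 1.37e-17), -2.26 ± 0.20 (adjusted p = 3.76e-13) and -1.61 ± 0.20 (adjusted p = 3.09e-09).

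C9, the subunit that polymerizes into the pore wall, shows how much that library weighs (chosen after its values were seen). At 168 h C9 was at 85.8, 97.3, 141 and 105 CPM with LX-A1656, 303, 321, 418 and 547 CPM with LX-A2003 and 948, 466, 2900 and 404 CPM with LX-A3928, against 1429, 1418, 862 and 1499 CPM with PBS. Replicate 3 of LX-A3928 was above every PBS library, while replicates 2 and 4 were below them all. The log2 fold change with LX-A3928 was -0.14 ± 0.32 (adjusted p = 0.738) with that library and -1.10 ± 0.24 (adjusted p = 1.77e-04) without it, beside -3.60 ± 0.35 (adjusted p = 6.23e-12) with LX-A1656 and -1.71 ± 0.33 (adjusted p = 2.29e-05) with LX-A2003.

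C6, which joins C5b at the start of pore assembly, was higher at 72 h and not at 168 h (also chosen after its values were seen). At 72 h C6 was at 426, 714, 520 and 688 CPM with LX-A1656, 514, 903, 789 and 783 CPM with LX-A2003 and 787, 805, 698 and 631 CPM with LX-A3928, against 301, 371, 373 and 373 CPM with PBS. Every treated library was above every PBS library, with log2 fold changes of 0.73 ± 0.24 (adjusted p = 0.0102), 1.08 ± 0.24 (adjusted p = 0.00115) and 1.04 ± 0.24 (adjusted p = 0.00209). At 168 h it was at 40.9, 44.3, 52.3 and 34.1 CPM with LX-A1656, 310, 247, 267 and 265 CPM with LX-A2003 and 485, 357, 696 and 331 CPM with LX-A3928, against 348, 507, 344 and 426 CPM with PBS. The log2 fold changes were then -3.24 ± 0.26 (adjusted p = 7.76e-15), -0.58 ± 0.24 (adjusted p = 0.0370) and 0.20 ± 0.24 (adjusted p = 0.509). The effect at 168 h differed from that at 72 h by -3.97 ± 0.35 (adjusted p = 2.52e-12) with LX-A1656, -1.65 ± 0.34 (adjusted p = 1.67e-04) with LX-A2003 and -0.84 ± 0.34 (adjusted p = 0.0641) with LX-A3928.

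**Figure D3:**
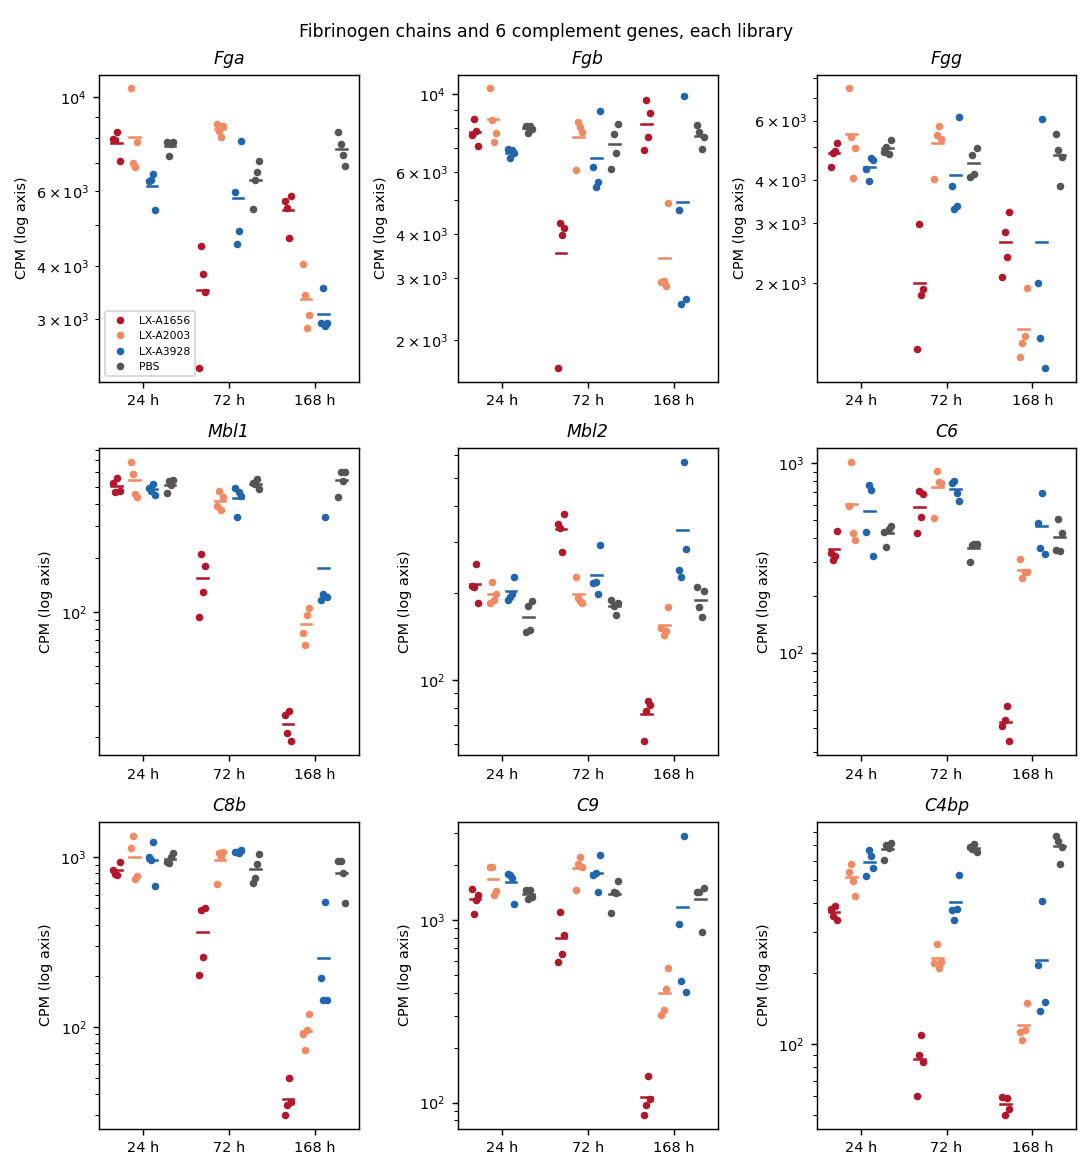
CPM (log axis) of the 3 fibrinogen genes and of Mbl1, Mbl2, C6, C8b, C9 and C4bp in each library, by time, for LX-A1656, LX-A2003, LX-A3928 and PBS from left to right. Each point is a library and each bar a group mean of 4. C4bp falls below PBS from 24 h on with LX-A1656, C6 lies above PBS at 72 h, and 1 LX-A3928 library at 168 h (replicate 3) lies high in Fgb, Fgg, Mbl1, Mbl2, C8b and C9.

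Of the complement inhibitors, C4bp, whose protein binds C4b and speeds its decay, fell first among the 39 genes. At 24 h C4bp was at 376, 351, 387 and 337 CPM with LX-A1656, 541, 584, 495 and 428 CPM with LX-A2003 and 520, 671, 631 and 560 CPM with LX-A3928, against 609, 703, 685 and 715 CPM with PBS. The LX-A1656 and LX-A2003 libraries were all below PBS, and the log2 fold changes were -0.90 ± 0.19 (adjusted p = 0.00317), -0.41 ± 0.19 (adjusted p = 0.363) and -0.19 ± 0.19 (adjusted p = 0.746), so only LX-A1656 was called. The difference of LX-A3928 from LX-A1656 at 24 h, 0.72 ± 0.19 (adjusted p = 0.0295), was the only 1 of the 39 called between these oligonucleotides then, where 2.9% of all genes were called (1.5% higher and 1.4% lower).

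By 72 h C4bp was below PBS with each oligonucleotide, at 60.2, 90.3, 110 and 84.0 CPM with LX-A1656, 222, 268, 211 and 224 CPM with LX-A2003 and 371, 336, 376 and 524 CPM with LX-A3928, against 687, 677, 712 and 657 CPM with PBS. The log2 fold changes were -2.99 ± 0.21 (adjusted p = 2.42e-16), -1.56 ± 0.20 (adjusted p = 5.67e-08) and -0.77 ± 0.19 (adjusted p = 0.00578). At 168 h they were -3.65 ± 0.21 (adjusted p = 2.57e-19), -2.53 ± 0.20 (adjusted p = 2.38e-14) and -1.61 ± 0.20 (adjusted p = 4.35e-09). The effect at 168 h differed from that at 72 h by -0.66 ± 0.27 (adjusted p = 0.0643) with LX-A1656, -0.97 ± 0.27 (adjusted p = 0.00566) with LX-A2003 and -0.84 ± 0.27 (adjusted p = 0.0206) with LX-A3928.

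Factor I (Cfi), the protease that inactivates C3b and C4b, changed less. At 168 h Cfi was at 243, 242, 267 and 260 CPM with LX-A1656, 286, 297, 286 and 380 CPM with LX-A2003 and 442, 297, 662 and 327 CPM with LX-A3928, against 541, 541, 484 and 538 CPM with PBS. The LX-A1656 and LX-A2003 libraries were all below PBS. Log2 fold changes were -1.06 ± 0.16 (adjusted p = 1.34e-07), -0.75 ± 0.16 (adjusted p = 7.02e-05) and -0.28 ± 0.16 (adjusted p = 0.129), and without replicate 3 that of LX-A3928 was -0.57 ± 0.14 (adjusted p = 7.34e-04).

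Complement genes outside the set were called in both directions. Of 24 such genes tested, 12 were higher and 10 lower with LX-A1656 at 168 h, 9 higher and 10 lower with LX-A2003, and 6 higher and 9 lower with LX-A3928, beside the 34.1%, 29.8% and 27.3% of all genes called higher and the 29.7%, 25.3% and 20.7% called lower. The fifth component, named Hc in mice, had log2 fold changes of -3.31 ± 0.30 (adjusted p = 7.65e-13), -2.30 ± 0.29 (adjusted p = 6.69e-09) and -1.44 ± 0.28 (adjusted p = 4.11e-05). Among those called higher were the C3a receptor C3ar1, at 3.81 ± 0.24 (adjusted p = 3.70e-18), 2.53 ± 0.24 (adjusted p = 2.72e-12) and 2.10 ± 0.24 (adjusted p = 7.79e-10), and the complement receptor subunit Itgam, at 4.58 ± 0.36 (adjusted p = 2.89e-15), 2.38 ± 0.35 (adjusted p = 1.78e-07) and 1.62 ± 0.36 (adjusted p = 2.07e-04).

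All 10 coagulation zymogens, cofactors and contact factors were called lower with LX-A1656 at 72 h, where 23.4% of all genes were called lower. Without its replicate 1 or with library totals alone, 9 were called lower and F9 was not called. At 168 h, 9 were called lower under LX-A1656, 10 under LX-A2003 and 8 under LX-A3928. Of all genes, 29.7%, 25.3% and 20.7% were called lower in that order. Their median log2 fold changes at 168 h were -1.59, -1.29 and -0.99. Plasma prekallikrein (Klkb1), the contact-system protease that activates factor XII and releases bradykinin, fell most. Klkb1 was at 31.2, 34.0, 35.9 and 21.3 CPM with LX-A1656, 37.5, 30.3, 36.2 and 67.8 CPM with LX-A2003 and 77.0, 31.8, 94.1 and 34.9 CPM with LX-A3928, against 235, 255, 177 and 274 CPM with PBS. No treated library reached the PBS range, and the log2 fold changes were -2.94 ± 0.27 (adjusted p = 7.65e-13), -2.45 ± 0.27 (adjusted p = 1.43e-10) and -1.99 ± 0.26 (adjusted p = 2.37e-08).

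Factor VII (F7), the partner of tissue factor, was at 43.2, 38.7, 45.9 and 51.2 CPM with LX-A1656, 74.2, 81.4, 69.5 and 55.8 CPM with LX-A2003 and 94.96, 99.3, 67.9 and 95.2 CPM with LX-A3928 at 168 h, against 214, 232, 250 and 203 CPM with PBS. Again the groups did not overlap with PBS, and the log2 fold changes were -2.33 ± 0.13 (adjusted p = 8.14e-20), -1.68 ± 0.13 (adjusted p = 5.94e-15) and -1.33 ± 0.13 (adjusted p = 6.90e-12). F7 and F3 thus both fell at 168 h with each oligonucleotide. With LX-A1656 at 72 h, F7 was at 64.0, 90.4, 80.0 and 82.8 CPM, against 235, 197, 192 and 223 CPM with PBS (log2 fold change -1.42 ± 0.13 (adjusted p = 8.72e-13)). In replicate 3 of LX-A3928, where several liver genes were high, F7 was the lowest of the 4 libraries.

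Of the other 8 genes of that group, prothrombin (F2), F5, F10, F11, F12 and kininogen (Kng1, uncertain because of its close copy Kng2) fell at 168 h with each oligonucleotide, by between 0.70 (F12 with LX-A2003) and 2.36 (F10 with LX-A1656) on the log2 scale. F13b, the carrier subunit of the fibrin-crosslinking factor XIII, fell with LX-A1656 and LX-A2003, and with LX-A3928 its log2 fold change was -0.17 ± 0.26 (adjusted p = 0.632), or -0.86 ± 0.21 (adjusted p = 6.80e-04) without replicate 3. F9, the gene mutated in haemophilia B, had the widest error of the group, with -0.64 ± 0.41 (adjusted p = 0.169) with LX-A1656, -1.02 ± 0.41 (adjusted p = 0.0326) with LX-A2003 and 0.03 ± 0.40 (adjusted p = 0.956) with LX-A3928, and the last was -0.97 ± 0.36 (adjusted p = 0.0258) without replicate 3.

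The fibrinogen genes differed between the oligonucleotides. Fga, Fgb and Fgg encode the 3 chains of fibrinogen. At 168 h Fgb was at 6946, 9593, 7558 and 8834 CPM with LX-A1656, 2923, 2947, 2853 and 4916 CPM with LX-A2003 and 4681, 2535, 9844 and 2609 CPM with LX-A3928, against 8131, 7793, 6982 and 7528 CPM with PBS. The LX-A1656 libraries lay on both sides of the PBS range, the LX-A2003 libraries all lay below it, and replicate 3 of LX-A3928 lay above it. The log2 fold changes of Fgb were 0.11 ± 0.25 (adjusted p = 0.712), -1.16 ± 0.26 (adjusted p = 1.77e-04) and -0.63 ± 0.26 (adjusted p = 0.0380), and without replicate 3 the last was -1.22 ± 0.22 (adjusted p = 1.18e-05).

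Fga at 168 h was at 5692, 5466, 4648 and 5846 CPM with LX-A1656, 4043, 3410, 2855 and 3065 CPM with LX-A2003 and 2934, 3541, 2884 and 2928 CPM with LX-A3928, against 8260, 7773, 7291 and 6885 CPM with PBS. Here all treated libraries were below PBS, with the LX-A1656 libraries the nearest to it. The log2 fold changes were -0.48 ± 0.16 (adjusted p = 0.00707), -1.18 ± 0.16 (adjusted p = 2.57e-08) and -1.30 ± 0.16 (adjusted p = 3.99e-09). Fgg was at 2079, 2814, 2387 and 3237 CPM, 1205, 1326, 1398 and 1936 CPM and 1994, 1371, 6078 and 1124 CPM in the same order, against 5476, 4921, 3862 and 4688 CPM with PBS, with log2 fold changes of -0.85 ± 0.29 (adjusted p = 0.00921), -1.69 ± 0.29 (adjusted p = 4.03e-06) and -0.84 ± 0.29 (adjusted p = 0.0137). Without replicate 3, Fgg with LX-A3928 was at -1.66 ± 0.22 (adjusted p = 3.66e-08).

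With LX-A1656, the fibrinogen genes had been lower at 72 h. Fga was then at 2300, 4452, 3817 and 3468 CPM, against 5452, 6383, 6670 and 7066 CPM with PBS, Fgb at 1670, 4314, 3986 and 4169 CPM against 6111, 7691, 6815 and 8190 CPM, and Fgg at 1278, 2974, 1846 and 1914 CPM against 4091, 4761, 4188 and 4977 CPM. Log2 fold changes were -0.87 ± 0.16 (adjusted p = 1.13e-05) for Fga, -1.03 ± 0.26 (adjusted p = 8.56e-04) for Fgb and -1.17 ± 0.29 (adjusted p = 7.71e-04) for Fgg. Between 72 h and 168 h the effect of LX-A1656 on Fgb differed by 1.14 ± 0.36 (adjusted p = 0.0132), whereas that of LX-A2003 differed by -1.23 ± 0.36 (adjusted p = 0.00758). LX-A2003 was below LX-A1656 at 168 h in each chain, with log2 differences of -0.70 ± 0.16 (adjusted p = 5.86e-04) in Fga, -1.27 ± 0.26 (adjusted p = 1.42e-04) in Fgb and -0.84 ± 0.29 (adjusted p = 0.0209) in Fgg. The calls against PBS depend on the scaling, because with library totals alone the LX-A1656 log2 fold change at 168 h was -0.01 ± 0.15 (adjusted p = 0.954) for Fga, 0.58 ± 0.23 (adjusted p = 0.0248) for Fgb and -0.39 ± 0.25 (adjusted p = 0.161) for Fgg.

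The windows around the fibrinogen start sites are shown because the 3 genes are neighbours that all fell with LX-A2003 but not all with LX-A1656 at 168 h. All are from RefSeq in GRCm38.p6 and run from 250 bases before to 50 bases after the start, with capitals marking the same motifs. Fga lies at chr3:83025903-83026202 on the plus strand, Fgb at chr3:83049814-83050113 on the minus strand and Fgg at chr3:83007474-83007773 on the plus strand.
Fga: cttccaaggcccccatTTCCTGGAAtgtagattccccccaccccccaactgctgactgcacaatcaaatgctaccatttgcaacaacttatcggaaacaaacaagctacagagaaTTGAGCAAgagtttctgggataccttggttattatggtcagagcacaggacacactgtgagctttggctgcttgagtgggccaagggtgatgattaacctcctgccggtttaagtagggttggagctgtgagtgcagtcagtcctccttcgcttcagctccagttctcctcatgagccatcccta
Fgb: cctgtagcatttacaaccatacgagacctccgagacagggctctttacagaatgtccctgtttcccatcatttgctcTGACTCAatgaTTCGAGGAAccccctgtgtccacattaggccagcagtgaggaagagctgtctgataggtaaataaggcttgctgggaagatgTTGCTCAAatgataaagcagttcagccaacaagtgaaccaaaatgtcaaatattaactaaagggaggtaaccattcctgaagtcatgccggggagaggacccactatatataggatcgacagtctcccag
Fgg: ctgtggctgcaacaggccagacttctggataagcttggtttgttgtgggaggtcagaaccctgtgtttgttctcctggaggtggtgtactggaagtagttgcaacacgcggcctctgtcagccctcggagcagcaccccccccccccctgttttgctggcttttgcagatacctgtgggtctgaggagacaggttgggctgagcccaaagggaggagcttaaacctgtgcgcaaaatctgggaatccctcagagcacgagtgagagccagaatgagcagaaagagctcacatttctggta
Fga held a C/EBP match 135 bases before the start and a STAT3 match 234 bases before it. Fgb held a C/EBP match at 80, an AP-1 match at 173 and a STAT3 match at 162 bases before the start, and Fgg held none of the 5 motifs in this window.

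Among the anticoagulants, protein C (Proc), the zymogen that thrombomodulin and thrombin activate, fell with each oligonucleotide. At 168 h Proc was at 114, 94.5, 103 and 100 CPM with LX-A1656, 130, 124, 136 and 142 CPM with LX-A2003 and 152, 138, 112 and 135 CPM with LX-A3928, against 325, 298, 328 and 320 CPM with PBS. Every treated library was below every PBS library, and the log2 fold changes were -1.63 ± 0.10 (adjusted p = 1.90e-18), -1.26 ± 0.10 (adjusted p = 1.71e-14) and -1.24 ± 0.10 (adjusted p = 3.93e-14). Thus Proc fell while its receptor partner Thbd rose. Protein S (Pros1), the cofactor of activated protein C, was higher with LX-A1656, at 33.4, 32.7, 26.5 and 25.3 CPM against 17.0, 17.7, 9.56 and 24.0 CPM with PBS (log2 fold change 0.79 ± 0.20 (adjusted p = 8.67e-04)). With LX-A2003 it was 0.43 ± 0.21 (adjusted p = 0.0690), or 0.85 ± 0.22 (adjusted p = 0.00108) with library totals alone, and with LX-A3928 0.10 ± 0.21 (adjusted p = 0.730).

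Tissue factor pathway inhibitor (Tfpi), which endothelial cells make, fell only with LX-A1656 at 72 h among the calls. It was then at 2.61, 3.91, 6.12 and 6.55 CPM, against 8.77, 11.0, 9.87 and 10.2 CPM with PBS, with no overlap (log2 fold change -1.05 ± 0.28 (adjusted p = 0.00185)). At 168 h Tfpi was at 7.64, 7.52, 7.12 and 6.84 CPM with LX-A1656, 6.42, 4.74, 6.15 and 10.1 CPM with LX-A2003 and 11.3, 6.71, 18.6 and 5.44 CPM with LX-A3928, against 5.78, 10.9, 4.85 and 10.8 CPM with PBS. Those ranges overlapped, and the log2 fold changes were -0.16 ± 0.28 (adjusted p = 0.641), -0.24 ± 0.28 (adjusted p = 0.487) and 0.35 ± 0.28 (adjusted p = 0.301).

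Within fibrinolysis, the liver-made genes fell while the activators rose. Cpb2, the liver carboxypeptidase that protects fibrin from plasmin (chosen after its values were seen), was at 112, 117, 138 and 128 CPM with LX-A1656, 232, 287, 292 and 239 CPM with LX-A2003 and 311, 268, 835 and 269 CPM with LX-A3928 at 168 h, against 1628, 1255, 1108 and 1219 CPM with PBS. Every treated library was below PBS, and the log2 fold changes were -3.40 ± 0.24 (adjusted p = 9.36e-17), -2.31 ± 0.23 (adjusted p = 7.68e-12) and -1.63 ± 0.22 (adjusted p = 4.49e-08), the last being -2.20 ± 0.18 (adjusted p = 2.54e-14) without replicate 3. At 72 h Cpb2 was -2.15 ± 0.23 (adjusted p = 5.79e-11) with LX-A1656 and -0.66 ± 0.22 (adjusted p = 0.0352) with LX-A2003. Plasminogen (Plg), the substrate of the activators, had log2 fold changes of -1.47 ± 0.13 (adjusted p = 4.50e-13), -1.08 ± 0.13 (adjusted p = 3.15e-09) and -1.06 ± 0.13 (adjusted p = 7.76e-09).

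Of 22 other coagulation genes tested, 7 were higher and 13 lower with LX-A1656 at 168 h, 6 higher and 9 lower with LX-A2003, and 7 higher and 11 lower with LX-A3928, beside the same shares of all genes. Antithrombin (Serpinc1) had log2 fold changes of -1.40 ± 0.14 (adjusted p = 4.44e-12), -0.48 ± 0.14 (adjusted p = 0.00283) and -0.58 ± 0.14 (adjusted p = 4.01e-04). The vitamin K-dependent carboxylase Ggcx had -3.07 ± 0.18 (adjusted p = 2.47e-19), -1.72 ± 0.17 (adjusted p = 1.05e-11) and -1.88 ± 0.17 (adjusted p = 1.41e-12). Among those called higher were annexin A2 (Anxa2), a plasminogen-binding protein, at 5.49 ± 0.25 (adjusted p = 5.35e-23), 5.09 ± 0.25 (adjusted p = 1.21e-21) and 5.06 ± 0.25 (adjusted p = 2.66e-21), and the protein C receptor Procr at 2.00 ± 0.34 (adjusted p = 1.69e-06), 1.65 ± 0.34 (adjusted p = 5.93e-05) and 1.04 ± 0.35 (adjusted p = 0.0112).

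Summed hepatocyte markers were also lower at 168 h, except in replicate 3 of LX-A3928. Their mean sum was 42789 CPM with LX-A1656, 33898 CPM with LX-A2003 and 47101 CPM with LX-A3928, against 67888 CPM with PBS. The libraries of the 3 oligonucleotides overlapped, and the most abundant markers weigh most in such a sum. The 9 of 10 listed hepatocyte markers in the table summed to 35619 to 49907 CPM with LX-A1656, 30306 to 37723 CPM with LX-A2003 and 29524 to 83750 CPM with LX-A3928 at 168 h, against 61049 to 79533 CPM with PBS, and none was at 0. Replicate 3 of LX-A3928 held the highest sum of its group, and the other 3 libraries were at 40599, 29524 and 34532 CPM. The part of a lower hepatocyte share in these falls was not tested. The 40 genes together took 3.72% ± 0.15 of counts in LX-A1656 livers, 3.67% ± 0.083 in LX-A2003 livers and 3.83% ± 0.20 in LX-A3928 livers at 168 h, against 5.09% ± 0.21 in PBS livers (SD, n = 4 each).

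The oligonucleotides differed in how far the set had moved. At 72 h, LX-A2003 had 27 genes higher and 5 lower than LX-A1656, where 35.9% of all genes were called (18% higher and 18% lower), and LX-A3928 had 26 higher and 5 lower, where 40.6% of all genes were called (20.4% higher and 20.1% lower). Between LX-A3928 and LX-A2003 only C4bp was called, at 0.80 ± 0.19 (adjusted p = 0.0315), where 0.718% of all genes were called (0.292% higher and 0.426% lower). That call was lost without replicate 1 of LX-A2003 and without replicate 4 of LX-A3928, the libraries that stood apart at 72 h. Without replicate 4 of LX-A3928, 1 gene of the set was nevertheless called. In 5 of the runs that left out a library no gene was called, also in that without replicate 3 of LX-A2003. At 168 h, LX-A2003 had 21 higher and 7 lower than LX-A1656, where 32.1% of all genes were called (18.3% higher and 13.8% lower). LX-A3928 had 25 higher and 8 lower than LX-A1656, where 41.7% of all genes were called (23.2% higher and 18.5% lower). The mean level was lowest with LX-A1656 in 26 of the 31 hepatocyte-secreted genes, and means rose in the order LX-A1656, LX-A2003, LX-A3928 in 21 of them.

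LX-A3928 and LX-A2003 could be told apart less firmly at 168 h. With all libraries LX-A3928 had 11 genes higher and 3 lower, where 8.1% of all genes were called (5.33% higher and 2.77% lower). Without its replicate 3 it had 3 higher and 3 lower, F7 was added, and Mbl1, C6, C8a, C8b, C8g, C9, C4bp, F13b and Cpb2 were no longer called. A fit of the 2 groups alone called none higher and 2 lower, and DESeq2 called 16. At 24 h no gene of the set was called by edgeR or DESeq2 for LX-A2003 against LX-A1656 or for LX-A3928 against LX-A2003. At an unadjusted p under 0.05, edgeR marked 3 genes in the first comparison and 1 in the other. The shares of all genes are given at the adjusted threshold only, so these marks cannot be set against them. In the first, 0.284% of all genes were called (0.166% higher and 0.118% lower). In the other, 0.15% of all genes were called (0.0631% higher and 0.0868% lower).

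**Figure D4:**
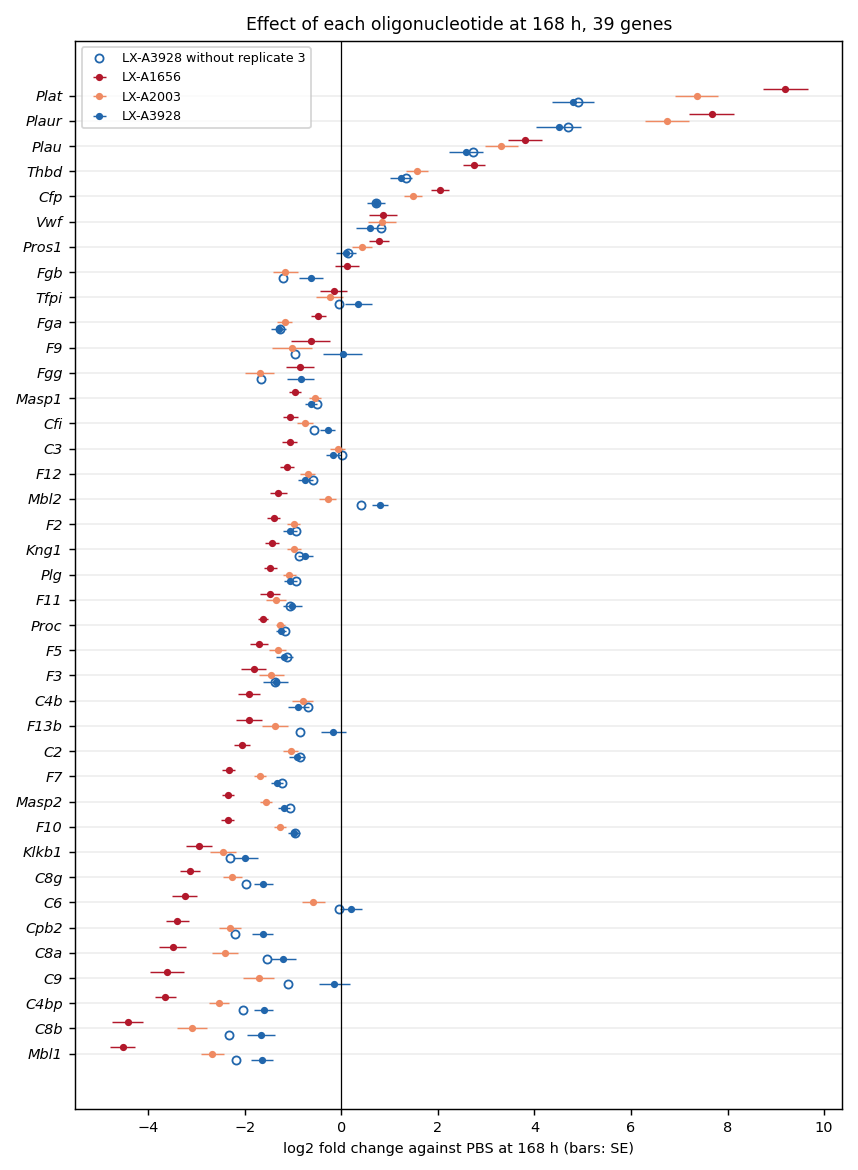
Log2 fold change against PBS at 168 h (x axis) of the 39 tested genes (rows, ordered by the LX-A1656 value), with bars for the standard error. Filled points are the 3 oligonucleotides and open circles are LX-A3928 without replicate 3. Plat, Plaur and Plau lie farthest to the right and Mbl1, C8b and C4bp farthest to the left, and the open circles lie left of the filled LX-A3928 points in most of the genes that fell most.

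Effects at 168 h were set against those at 72 h within each oligonucleotide, with PBS subtracted at each time. With LX-A1656, 7 genes had a higher and 19 a lower effect at 168 h, where 30.1% of all genes were called (14% higher and 16.1% lower). With LX-A2003 there were 5 higher and 25 lower, where 29.7% of all genes were called (15.9% higher and 13.8% lower), and with LX-A3928 4 higher and 19 lower, where 23% of all genes were called (12.5% higher and 10.5% lower). The largest differences were in the plasminogen activator system, where Plaur led with LX-A2003 and LX-A3928 and Plat led with LX-A1656. Plat differed by 4.44 ± 0.93 (adjusted p = 2.48e-04) with LX-A1656, 6.44 ± 1.04 (adjusted p = 4.68e-06) with LX-A2003 and 3.77 ± 0.94 (adjusted p = 0.00255) with LX-A3928. Plat and Plaur were tested only because they were high in treated libraries, so their rank and p-values here are a description and not support. C8b had the largest negative difference with LX-A2003 and LX-A3928, at -3.26 ± 0.41 (adjusted p = 3.26e-08) and -1.99 ± 0.40 (adjusted p = 2.09e-04), and C6 with LX-A1656.

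Patterns over the 12 group means are given as a description, over points that share a fit. C8a and C8b were most like each other (r = 0.997), as were Plat and Plaur (r = 0.979), Fga and Fgg (r = 0.949), Klkb1 and Proc (r = 0.985) and F2 and Plg (r = 0.982). Mbl1 was most like F10 (r = 0.995), and Cpb2 was most like F7 (r = 0.992). The weakest best matches were those of Pros1 (with Vwf, r = 0.713), Tfpi (with Masp1, r = 0.730) and Mbl2 (with C6, r = 0.830).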

How the data were processed

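Mouse liver RNA in 48 libraries was read by Ion AmpliSeq, a panel that amplifies a designed fragment of each mouse gene, per the labels' protocols. The deposited table holds raw counts per gene made by the authors; the aligner, counter and genome build are not stated in the sources used here. Samples were grouped by oligonucleotide and time from the labels.

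Counts were analysed in R 4.3.3 with edgeR 4.0.16 and limma 3.58.1 (TMM factors, filterByExpr over the 12 groups, 12 group means, robust quasi-likelihood F test, Benjamini-Hochberg adjustment over 12672 genes). Standard errors were derived from the log2 fold change and its F statistic. The 23 comparisons were 9 with PBS, 9 between oligonucleotides, 3 of the 168 h against the 72 h effect and 2 between PBS times. Comparisons with PBS at a time share the PBS libraries. The steps were tested on simulated data.

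Named in full were all surface and endothelial genes, the fibrinogen genes, and in each other role group the 2 with the largest mean absolute log2 fold change over the comparisons with PBS; C6, C9, Cfd, Cpb2, Mbl2 and Pros1 were added after their values were seen. Members and lists were chosen with earlier results of these data known. Alternatives were other scaling factors, library totals alone, no low-count filter, DESeq2 1.42.0, only the groups compared, the replicate number as a block, and leaving out each replicate.

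A gene of the complement list is not reported here.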

Additional observations from a re-analysis of the deposited data

Results flagged for a closer look

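In 30 of 312 gene-by-group sets of 4 libraries, over 26 genes, 1 library lay so far from the other 3 that its gap passed Dixon's critical value for 4 values, which chance does in about 1 in 20 sets. Of these, 5 were in replicate 3 of LX-A3928 at 168 h. Mbl1 was at 339 CPM in LX-A3928 replicate 3 at 168 h, above the others at 116 to 126 CPM. C8b was at 540 CPM in LX-A3928 replicate 3 at 168 h, above the others at 143 to 194 CPM. F7 was at 67.9 CPM in LX-A3928 replicate 3 at 168 h, below the others at 94.96 to 99.3 CPM. Mbl2 was at 569 CPM in LX-A3928 replicate 3 at 168 h, above the others at 227 to 285 CPM. Cpb2 was at 835 CPM in LX-A3928 replicate 3 at 168 h, above the others at 268 to 311 CPM.

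Cfd, which was too low to test, accounted for 6 of the 30. Where the other libraries are at 0, any value above 0 passes the critical value, so the chance rate given above does not apply to Cfd. Cfd was at 0.377 CPM in PBS replicate 1 at 168 h, against 0 CPM in the others. Cfd was at 0.312 CPM in LX-A1656 replicate 4 at 24 h, against 0 CPM in the others. Cfd was at 1.19 CPM in LX-A1656 replicate 2 at 168 h, against 0 CPM in the others. Cfd was at 0.184 CPM in LX-A2003 replicate 4 at 72 h, against 0 CPM in the others. Cfd was at 0.0672 CPM in LX-A2003 replicate 4 at 168 h, against 0 CPM in the others. Cfd was at 18.7 CPM in LX-A3928 replicate 2 at 168 h, above the others at 0 to 1.12 CPM. In the LX-A3928 library with 18.7 CPM of Cfd, the adipocyte genes Retn, Plin1, Adipoq and Lep were at 1.66, 1.21, 0.075 and 0 CPM, and their part in it was not tested.

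The other values were spread over many libraries. Masp2 was at 404 CPM in PBS replicate 1 at 24 h, above the others at 370 to 372 CPM. C3 was at 15623 CPM in LX-A2003 replicate 1 at 72 h, above the others at 13280 to 13592 CPM. C8b was at 1102 CPM in LX-A3928 replicate 4 at 72 h, above the others at 1059 to 1065 CPM. Cfi was at 484 CPM in PBS replicate 3 at 168 h, below the others at 538 to 541 CPM. Cfi was at 380 CPM in LX-A2003 replicate 4 at 168 h, above the others at 286 to 297 CPM. Klkb1 was at 223 CPM in PBS replicate 4 at 72 h, below the others at 260 to 263 CPM. Fga was at 3541 CPM in LX-A3928 replicate 2 at 168 h, above the others at 2884 to 2934 CPM. Fgb was at 1670 CPM in LX-A1656 replicate 1 at 72 h, below the others at 3986 to 4314 CPM. Fgb was at 4916 CPM in LX-A2003 replicate 4 at 168 h, above the others at 2853 to 2947 CPM. Proc was at 294 CPM in LX-A3928 replicate 1 at 24 h, above the others at 270 to 272 CPM. Plat was at 97.6 CPM in LX-A2003 replicate 3 at 168 h, below the others at 183 to 186 CPM. Plat was at 42.5 CPM in LX-A3928 replicate 4 at 168 h, above the others at 22.0 to 23.6 CPM. Plau was at 2.499 CPM in LX-A2003 replicate 3 at 72 h, above the others at 1.08 to 1.30 CPM. F3 was at 3.14 CPM in PBS replicate 1 at 24 h, below the others at 5.24 to 5.47 CPM. Plaur was at 1.62 CPM in PBS replicate 3 at 168 h, above the others at 0.127 to 0.377 CPM. Vwf was at 6.90 CPM in LX-A1656 replicate 3 at 24 h, above the others at 4.68 to 4.76 CPM. C6 was at 301 CPM in PBS replicate 1 at 72 h, below the others at 371 to 373 CPM. C9 was at 862 CPM in PBS replicate 3 at 168 h, below the others at 1418 to 1499 CPM. C9 was at 1220 CPM in LX-A3928 replicate 4 at 24 h, below the others at 1706 to 1785 CPM.

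The effect against PBS differed between 168 h and 72 h, tested as an interaction in edgeR with adjustment over all genes, for 26 of the 39 genes under LX-A1656, 30 under LX-A2003 and 23 under LX-A3928, where 30.1%, 29.7% and 23.0% of all genes were called. The genes named in the report had these values of the log2 difference, effect at 168 h minus effect at 72 h. With LX-A1656 it was -1.35 for Masp2, -2.77 for Mbl1, -2.20 for Mbl2, -1.01 for C3, -3.97 for C6, -3.18 for C8b, -1.47 for C8g, -2.80 for C9, -0.91 for F7, -1.38 for Klkb1, -0.93 for Proc and -1.25 for Cpb2 among the negative differences, and 1.88 for Cfp, 1.14 for Fgb, 4.44 for Plat, 2.47 for Plaur, 2.24 for Thbd and 1.27 for Vwf among the positive ones. With LX-A2003 it was -1.53 for Masp2, -2.35 for Mbl1, -1.65 for C6, -3.26 for C8b, -1.93 for C8g, -2.18 for C9, -0.75 for Cfi, -0.97 for C4bp, -1.44 for F7, -2.22 for Klkb1, -1.57 for Fga, -1.23 for Fgb, -1.88 for Fgg, -1.09 for Proc, -1.65 for Cpb2 and -1.46 for F3 among the negative differences, and 1.12 for Cfp, 6.44 for Plat, 2.53 for Plau, 6.96 for Plaur and 1.75 for Thbd among the positive ones. With LX-A3928 it was -1.23 for Masp2, -1.38 for Mbl1, -1.99 for C8b, -1.23 for C8g, -0.84 for C4bp, -1.29 for F7, -1.82 for Klkb1, -1.16 for Fga, -0.96 for Proc, -1.40 for Cpb2 and -1.65 for F3 among the negative differences, and 3.77 for Plat, 1.87 for Plau, 3.98 for Plaur and 1.33 for Thbd among the positive ones. Without replicate 3 of LX-A3928 at 168 h, 29 genes rather than 23 differed with that oligonucleotide. The values of Plat and Plaur are a description, because both were tested only through high treated libraries.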

How the results depend on the processing

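Among the genes named in full, apart from those added after their values were seen, no value changed direction past its threshold under any alternative. F9, outside those genes, did so with LX-A3928 at 168 h. It was called lower (-0.97) without replicate 3, against a positive value that was not called with all libraries. Most counts of called genes stayed within 1.5 times the reported count. With library totals alone, which moves the all-gene median at 168 h to 0.564, 0.451 and 0.386 (log2; LX-A1656, LX-A2003, LX-A3928), LX-A3928 against LX-A2003 at 72 h had 2 genes called and not 1. DESeq2 called 2 for LX-A3928 against PBS at 24 h and 2 for LX-A3928 against LX-A2003 at 72 h, against 1 each. Fits on only the groups compared called 2 for LX-A1656, 2 for LX-A2003 and 5 for LX-A3928 against PBS at 24 h (1 each reported), 12 for LX-A2003 against PBS at 72 h (3 reported), 1 for LX-A2003 against LX-A1656 and 6 for LX-A3928 against LX-A1656 at 24 h (0 and 1 reported), and 2 for LX-A3928 against LX-A2003 at 168 h (14 reported); the cause was not tested. Leaving out a replicate gave 0 to 1 genes for LX-A2003 and 1 to 2 for LX-A3928 against PBS at 24 h, 0 to 2 for LX-A3928 against LX-A1656 at 24 h, and for LX-A3928 against LX-A2003 0 to 1 at 72 h and 6 to 19 at 168 h (6 without LX-A3928 replicate 3, 19 without LX-A3928 replicate 4). The replicate numbers do not pair the samples: deviations of same-numbered libraries correlated at a mean r of 0.00607, -0.00733, -0.00753 and -0.0178 for numbers 1 to 4, against 0.0029 for different numbers. With the replicate number as a block, counts were unchanged except 31 for LX-A2003 against LX-A1656 at 72 h, 12 for LX-A3928 against LX-A2003 at 168 h and 22 for the LX-A3928 effect at 168 h against 72 h. Plat, Plau and Plaur have few counts in PBS livers, which limits the precision of their fold changes.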
